A study of Danio rerio with 21 samples.

Results

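The comparison described here is that of adult zebrafish telencephalon after 36 days of continuous external gamma irradiation (137Cs) at 5 mGy/h with the telencephalon of unexposed fish of the same experimental batch. It rests on 3 libraries at 5 mGy/h and 3 control libraries of batch 1, which make 6 of the 21 libraries of the series, and 21307 genes were tested. All fish were adults of the wild-type AB strain and each library was made from RNA of several pooled telencephalons, so that a library averages over fish. A further 3 libraries of the batch, from fish kept at 0.5 mGy/h, shared the fit and are cited only where a gene at 5 mGy/h is set beside the lower dose rate. Libraries at 5 mGy/h held 45.4 to 71.6 megareads counted on genes, and the controls held 48.1 to 61.1 megareads.

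The telencephalon is the forebrain region that in fish holds the pallium, the subpallium and a large zone of radial glia that divide throughout adult life. Its cells carry a circadian clock of their own, which in zebrafish is set directly by light through genes such as per2 and cry1, and its neurons answer to activity by inducing early response genes within minutes. Ionizing radiation acts on cells through DNA damage and oxidants, for which genes of cell cycle arrest and apoptosis, DNA repair and antioxidant genes are the usual readouts. Symbols are given as in the annotation, where many zebrafish genes carry the name of a mammalian orthologue, and the Ensembl ID is added where several copies share a symbol.

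Replicate 1 at 5 mGy/h stood apart from its group mates, and the results are therefore given with it and without it. Over the 21307 genes tested, its log2 CPM values (read counts scaled to a common library total) correlated with those of the other 8 libraries at 0.924 to 0.968, lowest with its own group mates, while replicates 2 and 3 correlated with each other at 0.99 and the controls among themselves at 0.979 to 0.988. With the controls replicate 1 correlated at 0.956 to 0.963, replicate 2 at 0.973 to 0.98 and replicate 3 at 0.963 to 0.972. Replicate 1 lay below every control for 7594 genes (35.6%) and above every control for 7874 genes (37%). For 3144 genes replicate 1 lay below every control while replicates 2 and 3 both lay above every control, and for 2500 genes this order was turned round. All 3 libraries at 5 mGy/h lay above every control for 840 genes (3.94% of those tested) and below every control for 1054 genes (4.95%).

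With all libraries, a gene was called where its adjusted p was under 0.05 and it differed by 1.5-fold or more, and 1 gene, per2, met both and fell (0.00469% of the genes tested were called). per2 encodes a repressor of the clock and is among the light-induced genes of zebrafish. Its level was 94.3, 97.9 and 112 CPM at 5 mGy/h, against 218, 210 and 226 CPM in control. No library of either group came near the other group, and the log2 fold change was -1.10 ± 0.09 (SE, n = 3 each, edgeR's quasi-likelihood test, adjusted p = 0.0396). Without replicate 1 it was -1.06 ± 0.09 (edgeR, adjusted p = 0.00441). The call was lost without any one of the other 5 libraries, at log2 fold changes of -1.08 to -1.20 and adjusted p of 0.0711 to 0.167 (edgeR). At 0.5 mGy/h per2 stood at 144, 168 and 170 CPM, between the values at 5 mGy/h and control. The difference from 0.5 mGy/h had an adjusted p of 0.535 with all libraries and of 0.0118 without replicate 1 (edgeR).

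**Figure D1:**
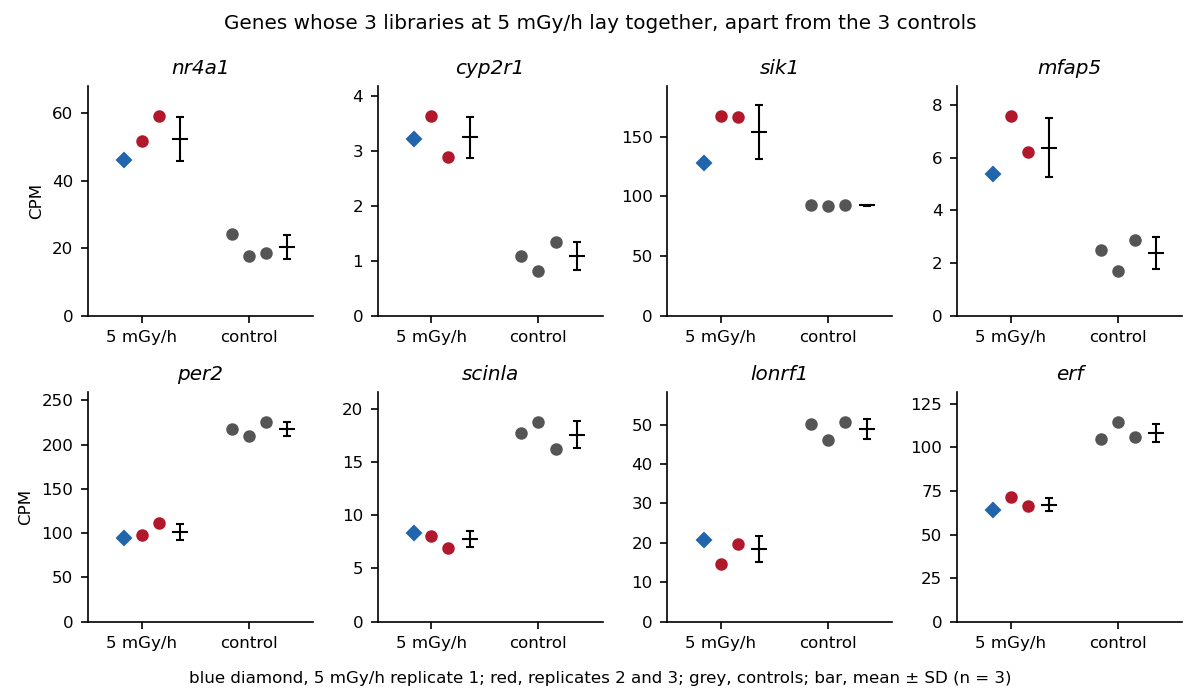
CPM per library of the 4 genes with the lowest p in each direction among those whose groups did not overlap, with 5 mGy/h on the left (blue diamond, replicate 1) and control on the right; the bars are means ± SD. By this choice replicate 1 lies apart from the controls, on the side of its group mates, in all 8 genes. per2 stands at 94.3 to 112 CPM at 5 mGy/h and at 210 to 226 CPM in control.

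The other genes with the lowest p below control did not pass the adjusted threshold with all libraries, although their groups were well apart. lonrf1, a RING finger protein gene, stood at 20.7, 14.6 and 19.7 CPM at 5 mGy/h, against 50.3, 46.1 and 50.6 CPM in control, a log2 difference of -1.42 ± 0.15 (SE, edgeR, adjusted p = 0.0707). scinla, which encodes a member of the gelsolin family of actin-severing proteins, stood at 8.35, 8.09 and 6.94 CPM at 5 mGy/h, against 17.7, 18.7 and 16.2 CPM in control. erf, an ETS repressor regulated by ERK signalling, stood at 64.1, 71.3 and 66.1 CPM at 5 mGy/h, against 105, 114 and 106 CPM in control. These 3 genes were taken from those whose groups did not overlap, so that replicate 1 lay below every control by choice. All 3 were called lower once replicate 1 was left out, with adjusted p of 0.0047, 0.0047 and 0.00487 (edgeR). At 0.5 mGy/h lonrf1 stood at 25.3, 32.4 and 28.6 CPM, below its control range. cry1 (ENSDARG00000045768), the partner of the PER proteins in the repressor complex of the clock, stood at 146, 115 and 137 CPM at 5 mGy/h, against 199, 190 and 203 CPM in control, and was called lower without replicate 1 at a log2 fold change of -0.65 ± 0.09 (edgeR, adjusted p = 0.00574). The remaining genes of this kind with a symbol were chn1, slc20a1, si:ch211-14c7.2, polr2a (the largest subunit of RNA polymerase II), mtus1b and osgn1, with log2 differences between -0.35 and -0.71 and adjusted p of 0.479 to 0.659 with all libraries (edgeR). Of these, mtus1b and osgn1 were called lower without replicate 1. In that fit chn1, slc20a1, si:ch211-14c7.2 and polr2a had adjusted p of 0.00717 to 0.0097 (edgeR) but differed by less than 1.5-fold.

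Among the genes that stood above control in all 3 libraries, nr4a1 had the lowest p. It encodes an orphan nuclear receptor of the early response and stood at 46.3, 51.7 and 59.3 CPM at 5 mGy/h, against 24.3, 17.7 and 18.7 CPM in control. The log2 difference was 1.37 ± 0.15 with all libraries (SE, edgeR, adjusted p = 0.0707) and 1.45 ± 0.14 without replicate 1, where the gene was called higher (edgeR, adjusted p = 0.0047). sik1, a salt-inducible kinase that restrains CREB-driven transcription, stood at 128, 167 and 166 CPM at 5 mGy/h, against 92.8, 91.8 and 92.8 CPM in control. The spread of sik1 among controls was thus far smaller than its distance to any library at 5 mGy/h, which the choice by lowest p favours. Without replicate 1 sik1 was called higher at a log2 fold change of 0.85 ± 0.06 (edgeR, adjusted p = 0.0042). At 0.5 mGy/h sik1 stood at 118, 127 and 111 CPM. atf3, a stress-induced bZIP factor, stood at 10.8, 12.8 and 10.4 CPM at 5 mGy/h, against 5.56, 4.62 and 7.32 CPM in control. cyp2r1, a vitamin D 25-hydroxylase, stood at 3.22, 3.64 and 2.88 CPM at 5 mGy/h, against 1.09, 0.819 and 1.34 CPM in control. mfap5, a microfibril protein of the extracellular matrix, stood at 5.37, 7.59 and 6.21 CPM at 5 mGy/h, against 2.51, 1.7 and 2.89 CPM in control. These 3 genes and dgkh, leap2 and ftr13 were called higher without replicate 1, and none of them passed with all libraries, where the adjusted p ran from 0.435 to 0.807 (edgeR). dusp2 (a phosphatase of MAP kinases), s100b (a calcium-binding protein of glia), ciarta (a clock-controlled repressor) and hbe1 (ENSDARG00000069734, an embryonic globin by name) also lay above every control in all 3 libraries, by the choice of genes. None of them was called by edgeR in either fit. Without replicate 1, dusp2, s100b and ciarta had adjusted p of 0.0171 to 0.0381 (edgeR) but differed by less than 1.5-fold. With all libraries DESeq2 called dusp2 and hbe1 higher (adjusted p = 0.0128 and 0.0325, DESeq2).

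Genes of the clock were counted as a list of 38 members. With all libraries 4 had an unadjusted p under 0.05 above control and 7 below it, where 3.26% and 2.5% of all genes tested did so, and the median log2 fold change was -0.14 against 0.03 over all genes. Without replicate 1, which lay below every control in 30 of the 38 genes (35.6% of all genes), the median turned to 0.08. By role, no activator had an unadjusted p under 0.05 with all libraries. Among members that the list sorts under the repressor limb, 1 was higher and 7 were lower at that threshold, and 3 output factors were higher. Besides per2 and cry1 (ENSDARG00000045768), the lower members were cry1 (ENSDARG00000011583), cry2, cry3b, cry5 and per1 (ENSDARG00000012499), named here after their values were seen, with log2 differences between -0.16 and -0.69. cry2 stood at 73.5, 69.9 and 78.8 CPM at 5 mGy/h, against 94.6, 92.3 and 90.3 CPM in control. The other copy of per1 (ENSDARG00000056885) went the other way, with 39.8, 63.3 and 70.9 CPM at 5 mGy/h, against 39.4, 41.8 and 29.4 CPM in control, and was called higher without replicate 1 (log2 fold change 0.86 ± 0.17, edgeR, adjusted p = 0.0216). Without replicate 1, per1 (ENSDARG00000056885) and clock (ENSDARG00000011703) were called higher and per2 and cry1 (ENSDARG00000045768) lower (6.11% and 0.231% of all genes). clock, an activator of the loop, stood at 1.11, 13.3 and 22.1 CPM at 5 mGy/h, against 5.52, 6.47 and 5.91 CPM in control, so that its replicate 1 was below and its replicates 2 and 3 above the controls. Clock transcripts cycle within the day and the pineal organ carries a strong clock of its own, and the summed level of 36 pineal markers was 1407, 1862 and 2430 CPM at 5 mGy/h, against 2594, 210 and 188 CPM in control. The time of sampling is not given per library, and the part of either in these values was not tested. In bulk RNA, fewer cells of a type and less RNA per cell cannot be told apart.

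Early response genes stood higher more often than lower. Of 49 members tested, 12 had an unadjusted p under 0.05 above control and 3 below with all libraries (3.26% and 2.5% of all genes), and the median log2 fold change was 0.21 (all genes 0.03). Without replicate 1, 5 were called higher and 2 lower, where 6.11% and 0.231% of all genes were. The 5 were nr4a1, sik1, atf3, egr3 and egr2a, of which egr3 stood at 45.7, 85.9 and 94.4 CPM at 5 mGy/h, against 52.6, 42.6 and 55.4 CPM in control, with replicate 1 inside the control range. The 2 lower genes were inhba, a subunit of activins and inhibins, with 7.77, 11.4 and 8.26 CPM at 5 mGy/h, against 15.3, 16.03 and 17.6 CPM in control, and maff, a small MAF factor. Both had all 3 libraries at 5 mGy/h below every control. egr1, a zinc finger factor widely used as a marker of neuronal activity, stood at 356, 312 and 338 CPM at 5 mGy/h, against 239, 235 and 310 CPM in control, and did not pass (edgeR, adjusted p = 0.807). npas4 (ENSDARG00000055752), another factor induced by activity, varied as much among controls, at 150, 99.5 and 279 CPM, as between groups, with 229, 337 and 292 CPM at 5 mGy/h.

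Without replicate 1, 1375 genes were called among 21673 tested, 1325 higher (6.11%) and 50 lower (0.231%) at 5 mGy/h. Of the 1325 genes, 1008 were at least doubled and 185 were more than 8-fold higher, and the median log2 fold change was 1.51. They were mostly genes of low to moderate level, with a median of 3.15 CPM in control. In 1186 of them replicate 3 was higher than replicate 2, and the share over all genes was not counted. In replicate 1, which took no part in choosing them, 1194 of the 1325 (90.1%) lay below every control, against 35.6% of all genes tested, and 41 (3.09%) lay above every control. Relative to the control mean, the median log2 level of the 1325 genes was -1.22 in replicate 1, 1.04 in replicate 2 and 1.43 in replicate 3. With all 3 libraries in the fit none of them was called, and the lowest adjusted p among the 1281 that could be tested was 0.0707 (edgeR). Of the 50 genes that were lower, 32 (64%) lay below every control in replicate 1 as well, and 4 lay above every control (35.6% and 37% of all genes). The controls took part in choosing the 50 genes, which may raise the first share. At 0.5 mGy/h all 3 libraries lay above every control for 102 of the 1325 genes (7.7%, against 4.42% of all genes tested). The same controls took part in choosing the 1325 genes, which may raise this share. With the same pair of 5 mGy/h libraries, 1044 of the 1325 were also called higher at 5 mGy/h than at 0.5 mGy/h. Over all 21307 genes, 1142 were called against 0.5 mGy/h in the direction of their difference from control. The 1325 were chosen for high values in that pair, so that this overlap is largely set by the choice. The count of 1375 was 155 (152 higher, 3 lower) in a fit with all libraries of both batches, 448 without replicate 3 at 5 mGy/h and 792 without control replicate 3.

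**Figure D2:**
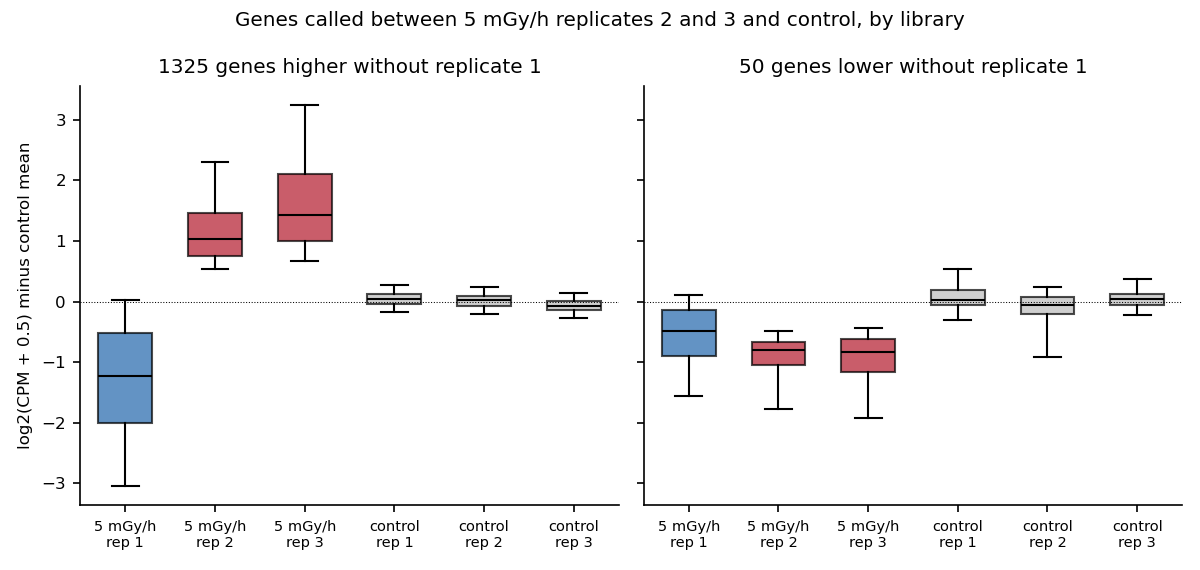
Log2(CPM + 0.5) minus the control mean, by library, for the genes called higher (left) and lower (right) when replicate 1 at 5 mGy/h (blue) was left out. Lines in the boxes are medians, boxes span the quartiles and whiskers the 5th to 95th percentile over genes. For the genes that were higher, the median of replicate 1 is -1.22. That of replicates 2 and 3 is 1.04 and 1.43, and the controls lie about 0. By the choice of genes replicates 2 and 3 lie apart from the controls, while replicate 1 took no part in it.

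The genes with the lowest p among those called higher without replicate 1 had replicate 1 below every control, except sik1 and tgfbr1 (ENSDARG00000042259). cacna1b, the pore subunit of the N-type calcium channel that triggers transmitter release, stood at 17.7, 89.4 and 102 CPM at 5 mGy/h, against 41.3, 43.3 and 39.8 CPM in control. Its log2 fold change without replicate 1 was 1.204 ± 0.07 (SE, edgeR, adjusted p = 0.0031) and 0.75 ± 0.51 with all libraries. erc2, a scaffold protein of the presynaptic active zone, stood at 1.82, 15.06 and 27.6 CPM at 5 mGy/h, against 2.57, 2.1 and 2.06 CPM in control. hipk3, a homeodomain-interacting kinase, stood at 3.77, 35.4 and 65.9 CPM at 5 mGy/h, against 6.65, 6.7 and 6.44 CPM in control. dnmt3a, a de novo DNA methyltransferase, stood at 0.577, 11.49 and 21.7 CPM at 5 mGy/h, against 1.42, 1.14 and 1.34 CPM in control, and its log2 fold change without replicate 1 was 3.67 ± 0.27 (edgeR, adjusted p = 0.0042). In each of these genes the controls lay within a narrow band, which the choice by lowest p favours. The libraries at 5 mGy/h lay on both sides of that band. chico (an insulin receptor substrate by name), mmp15, tppp and sobp were of the same kind, with log2 fold changes between 2.81 and 4.2 and replicate 1 at 0.2 to 0.311 CPM. tgfbr1 (ENSDARG00000042259) had 4 reads in replicate 1 and 7, 4 and 10 reads in the controls. Among the genes with the largest fold change whose replicate 1 lay on the other side of the control mean, csrnp3, a nuclear protein of neurons, had 0.0222, 3.2 and 11.7 CPM at 5 mGy/h, against 0.146, 0.189 and 0.098 CPM in control. These were 9, 9 and 6 reads in the controls and 1 read in replicate 1. bbx, dolk, ankrd52, sipa1, inpp5j and hipk2 also held at most 21 reads in any control, and in bbx, inpp5j and hipk2 replicate 1 lay inside the control range.

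Some genes with many reads in control showed the same order. pcsk1, the convertase that cleaves prohormones, stood at 1.46, 150 and 197 CPM at 5 mGy/h, against 60.6, 56.7 and 49.98 CPM in control. kif5b, a motor of axonal transport, stood at 1.73, 112 and 150 CPM at 5 mGy/h, against 43.3, 42.7 and 37.2 CPM in control. mapk8ip2, a scaffold of the JNK pathway at synapses, stood at 1.86, 108 and 210 CPM at 5 mGy/h, against 22.6, 21.3 and 18.4 CPM in control. Replicate 1 was more than 10-fold below the control mean in each of these 3 genes, and replicates 2 and 3 were above it. mmp24, pum2, unc5d, zbtb4 and one copy of slc17a6 complete the 8 genes in which replicate 1 was farthest below its group mates. The difference of replicate 1 from its mates is a description and was not tested.

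**Figure D3:**
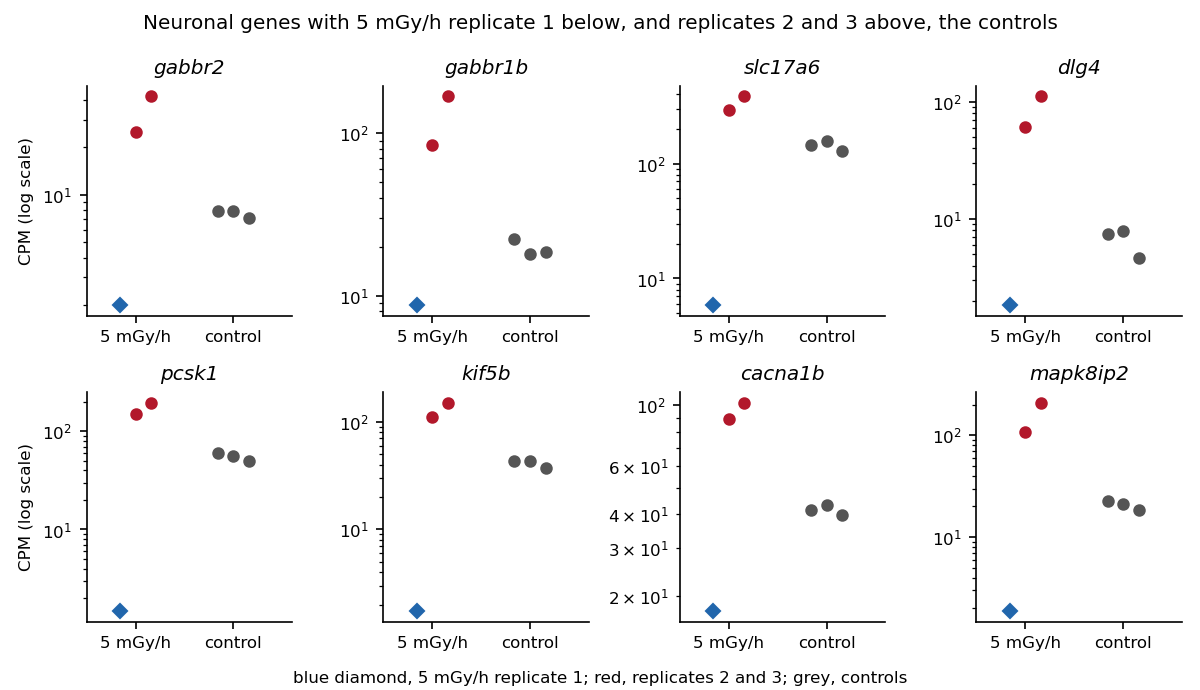
CPM per library (log scale) of 8 genes, chosen because replicate 1 lay below and replicates 2 and 3 above the controls. The 5 mGy/h libraries are on the left and control on the right. By this choice replicate 1 at 5 mGy/h (blue diamond) is the lowest library in every panel and replicates 2 and 3 (red) are the highest. pcsk1 stands at 1.46, 150 and 197 CPM at 5 mGy/h, against 49.98 to 60.6 CPM in control.

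GABA is the main inhibitory transmitter of the telencephalon, acting on ion channels of the GABA-A type and on the GABA-B receptors, which couple to G proteins. Of 28 genes tested in its list, 13 were called higher without replicate 1 and none lower (6.11% and 0.231% of all genes), and the median log2 fold change was 0.62, against -0.0006 over all genes. With all libraries none was called, 3 had an unadjusted p under 0.05 above control and 1 below, and the median was 0.22. gabbr1b, a subunit of the GABA-B receptor, stood at 8.72, 84.6 and 168 CPM at 5 mGy/h, against 22.1, 18.1 and 18.4 CPM in control. Its log2 fold change was 2.69 ± 0.30 without replicate 1 (edgeR, adjusted p = 0.00476) and 2.16 ± 0.81 with it. gabbr2, its partner subunit, stood at 2, 25.2 and 42 CPM at 5 mGy/h, against 7.86, 7.94 and 7.16 CPM in control. Among the others called were the receptor subunits gabrg1, gabrg3, gabra3, gabra4, gabrb4, gabbr1 (ENSDARG00000018967) and one copy of gabrb2 (ENSDARG00000100032), the transporter slc6a11 and a second copy of gad1 (ENSDARG00000093411). Of the genes that define GABA neurons, the other copy of gad1 and 2 more were not called. gad1 (ENSDARG00000027419), which makes GABA from glutamate, stood at 875, 830 and 758 CPM at 5 mGy/h, against 819, 825 and 822 CPM in control. slc32a1, which loads GABA into vesicles, stood at 284, 264 and 245 CPM at 5 mGy/h, against 247, 246 and 240 CPM in control. gad2 stood at 743, 1111 and 886 CPM at 5 mGy/h, against 880, 839 and 869 CPM in control, and none of these 3 was called in either fit.

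Copies of a gene differed from each other in the same way among the genes of excitatory synapses. Of 36 glutamate genes tested, 4 were called higher without replicate 1 and none lower (median log2 fold change 0.12), and of 48 synapse genes 5 were called higher and none lower (median -0.04), where 6.11% of all genes were called higher. One copy of slc17a6 (ENSDARG00000001127), the vesicular glutamate transporter, stood at 5.86, 293 and 384 CPM at 5 mGy/h, against 146, 156 and 128 CPM in control. The other copy (ENSDARG00000041150) stood at 167, 267 and 228 CPM at 5 mGy/h, against 223, 220 and 233.5 CPM in control, and its log2 fold change without replicate 1 was 0.13 ± 0.08. One copy of dlg4 (ENSDARG00000041926), the PSD-95 scaffold of the postsynaptic density, stood at 1.84, 60.3 and 110 CPM at 5 mGy/h, against 7.5, 7.96 and 4.64 CPM in control, a log2 fold change of 3.66 ± 0.32 without replicate 1 (edgeR, adjusted p = 0.00441), while the other copy (ENSDARG00000039385) differed by 0.05 ± 0.08. grin2b, a subunit of the NMDA receptor, behaved likewise, with 0.222, 13.1 and 22.4 CPM at 5 mGy/h, against 3.45, 3.7 and 3.27 CPM in control for copy ENSDARG00000079348, and with 581, 812 and 835 CPM at 5 mGy/h, against 654, 747 and 722 CPM in control for copy ENSDARG00000030376. grin1, the obligatory NMDA subunit, stood at 2299, 2252 and 2245 CPM at 5 mGy/h, against 2240, 2444 and 2292 CPM in control, and the AMPA subunit gria2 at 1736, 2041 and 2100 CPM at 5 mGy/h, against 1875, 2057 and 1955 CPM in control. Other genes called in these lists included grik3, gria1 (ENSDARG00000032714), dlg2, bsn (ENSDARG00000111110) and nlgn1. Reads that fit more than 1 gene equally well are left out of counts of this kind, so that levels of close copies may be understated.

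Families of genes were then formed by symbol, after results were known, and are described by counts alone. Of 106 genes of potassium channels and their partners, 26 were called higher without replicate 1 and none lower, and of 46 calcium channel genes 17 were called higher and none lower, where 6.11% of all genes were higher. kcnt1, a sodium-activated potassium channel, stood at 16.2, 193 and 285 CPM at 5 mGy/h, against 112, 107 and 101 CPM in control. cacna1e, the R-type calcium channel, stood at 13.8, 79.1 and 101 CPM at 5 mGy/h, against 42.4, 36.0 and 39.7 CPM in control. Replicate 1 lay below every control in 64 of the potassium channel genes and in 35 of the calcium channel genes (35.6% of all genes). Phosphodiesterases of cyclic nucleotides had 9 of 30 called higher, protocadherins, which are adhesion proteins of neurons, 11 of 45, and plexins with semaphorins 8 of 42. pde10a, a phosphodiesterase of striatal neurons in mammals, stood at 0.644, 16.2 and 18.2 CPM at 5 mGy/h, against 1.37, 2.5 and 1.94 CPM in control. At the other end, no gene was called among 45 proteasome subunits, 74 mitochondrial ribosomal proteins, 32 genes whose symbols fit aminoacyl tRNA synthetases and 23 small nuclear ribonucleoprotein genes, and their medians without replicate 1 lay between -0.13 and -0.19. Nor was any gene called among 12 metabotropic glutamate receptors (median 0.09) and 11 chromodomain helicases (median 0.15). Of 27 ionotropic glutamate receptor subunits, 3 were called higher. In replicate 1, 35 of the 45 proteasome genes and 65 of the 74 mitochondrial ribosomal protein genes lay above every control (37% of all genes).

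**Figure D4:**
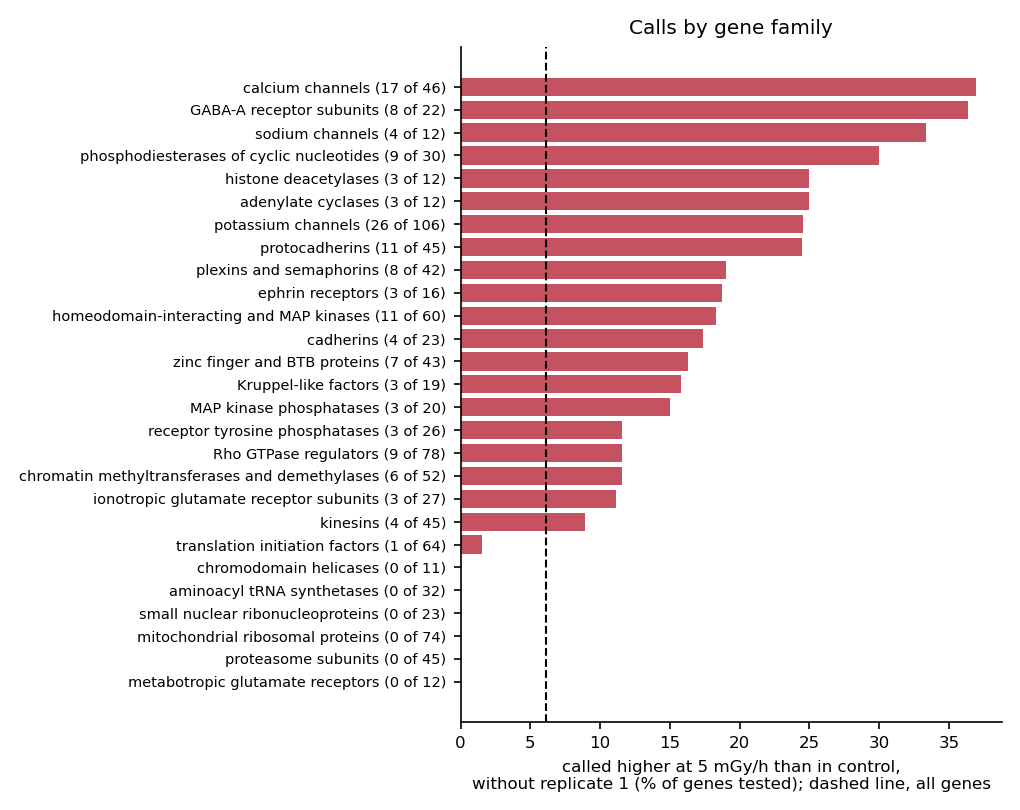
Percent of the genes tested, in each family with at least 10 tested, that were called higher at 5 mGy/h than in control without replicate 1, with counts beside the names. The dashed line is the percent over all genes tested, 6.11%. Calcium channels (17 of 46) stand at the top, while proteasome subunits, mitochondrial ribosomal proteins and metabotropic glutamate receptors are among the families with no call.

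Genes of axon guidance, which steer growing axons and persist in adult neurons as synaptic organisers, had replicate 1 below every control in 23 of 40 and both other libraries above every control in 14 of 40. Of all genes tested, 35.6% and 22.2% did so. Of the 40, 6 were called higher without replicate 1 (6.11% of all genes), none lower, and none with all libraries, with medians of 0.23 and 0.03. plxna2, a receptor of semaphorins, stood at 1.47, 27.5 and 63.9 CPM at 5 mGy/h, against 9.18, 8.59 and 7.4 CPM in control. slit1 (ENSDARG00000044954), a repulsive cue, stood at 13.7, 61.8 and 76.1 CPM at 5 mGy/h, against 33.9, 37.3 and 37.4 CPM in control, and epha4b, nrp1b, plxna1 (ENSDARG00000105452) and sema3a were the others. In the stress axis list, which joins corticotropin signalling and steroid receptors, 4 of 23 genes were called higher without replicate 1 and 6 had an unadjusted p under 0.05 above control with all libraries (3.26% of all genes, median 0.29). Besides nr4a1, these 4 were crhr1, the receptor of corticotropin-releasing hormone, with 1.35, 16.3 and 15.13 CPM at 5 mGy/h, against 6.44, 8.09 and 6.98 CPM in control, the mineralocorticoid receptor nr3c2, and hsd11b2, which inactivates cortisol. hsd11b2 stood at 28.1, 71.1 and 47.8 CPM at 5 mGy/h, against 37.7, 25.3 and 26.1 CPM in control. nr3c1, the glucocorticoid receptor, stood at 27.0, 36.2 and 38.4 CPM at 5 mGy/h, against 39.4, 39.9 and 38.3 CPM in control, and was not called in either fit.

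Myelin and sterol genes gave small differences. In the oligodendrocyte list, 6 of 20 genes had an unadjusted p under 0.05 above control with all libraries, 1 below (3.26% and 2.5% of all genes), and none was called. mbpa, a main protein of myelin, stood at 809, 804 and 469 CPM at 5 mGy/h, against 473, 430 and 488 CPM in control, so that replicate 3 lay inside the control range. Without replicate 1, 2 genes were called higher, myrf, the master regulator of myelin genes, and cspg4, the NG2 proteoglycan of precursor cells, both with replicate 1 below the controls. Of 24 genes of sterol synthesis, 7 had an unadjusted p under 0.05 above control with all libraries and none below (3.26% and 2.5% of all genes, median 0.17), and without replicate 1 sqle (ENSDARG00000079946) and srebf1 were called higher. sqle, squalene epoxidase, stood at 32.6, 36.3 and 51.1 CPM at 5 mGy/h, against 31.3, 27.3 and 26.5 CPM in control. Among transmitter systems, 2 of 34 monoamine genes were called higher without replicate 1, near the 6.11% of all genes, the vesicular transporter slc18a2 and the dopamine receptor drd1, and no gene of 25 neuropeptides tested was called in either fit.

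The genes that were lower without replicate 1 included several in which replicate 1 was as low as its mates or lower. vps37bb, a subunit of the ESCRT-I sorting complex, stood at 39.6, 70.29 and 69.7 CPM at 5 mGy/h, against 122, 104 and 98.6 CPM in control. In others replicate 1 lay nearer to the controls than to its mates. stmn4, a stathmin that binds tubulin in neurons, stood at 186, 127 and 126 CPM at 5 mGy/h, against 198, 190 and 194 CPM in control (without replicate 1, log2 fold change -0.62 ± 0.07, edgeR, adjusted p = 0.0047). auts2, a neuronal regulator of transcription, stood at 71.3, 44.8 and 46.9 CPM at 5 mGy/h, against 67.7, 77.2 and 67.0 CPM in control. pyy, a peptide of the neuropeptide Y family, stood at 54.8, 31.8 and 28.4 CPM at 5 mGy/h, against 49.2, 50.8 and 52.4 CPM in control. btg3, rab5b, sp100.2, rrm2b and proser1 likewise had replicate 1 above the control mean, with log2 fold changes between -0.59 and -1.0 without it. rrm2b, a ribonucleotide reductase subunit, stood at 71.1, 42.4 and 37.9 CPM at 5 mGy/h, against 79.2, 67.6 and 57.9 CPM in control. rhcg, an ammonia transporter, had the largest change among the 12 of lowest p, with 3.04, 0.438 and 0.396 CPM at 5 mGy/h, against 7.39, 3.82 and 2.76 CPM in control.

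Genes of the response to radiation damage were counted as lists. With all libraries 1 of the 21307 genes tested was called, so that a list without calls says little there. Over all genes 3.26% had an unadjusted p under 0.05 above control and 2.5% below with all libraries. Without replicate 1, 6.11% of all genes were called higher and 0.231% lower. Of 31 genes of damage-induced arrest and apoptosis, 4 had an unadjusted p under 0.05 above control and none below with all libraries (median 0.10), and 1, zmat3, was called higher without replicate 1, with 0.488, 14.0 and 17.7 CPM at 5 mGy/h, against 6.69, 6.76 and 5.24 CPM in control. Among the 4 were plk3, ccng1 and cdkn1a, named after their values were seen. cdkn1a, the p21 inhibitor of the cell cycle, stood at 2, 2.52 and 1.92 CPM at 5 mGy/h, against 1.38, 1.26 and 1.13 CPM in control, so that its groups did not overlap, at a log2 difference of 0.77 ± 0.22 (edgeR, adjusted p = 0.807). Of the 31 genes, 5 lay above every control in all 3 libraries and 1 below (3.94% and 4.95% of all genes). Replicate 1 lay above every control in 21 of the 31 and below in 5 (37% and 35.6% of all genes). Of 66 genes of DNA repair and checkpoints, 3 had an unadjusted p under 0.05 above control and 2 below, shares near those of all genes, and no gene was called with or without replicate 1. parp1, the sensor of strand breaks, stood at 122, 106 and 115 CPM at 5 mGy/h, against 117, 119.1 and 117 CPM in control. Of 38 antioxidant genes none was called by edgeR in either fit, and 1 had an unadjusted p under 0.05, above control, with all libraries (median 0.01). Of 36 genes of proliferation none was called in either fit and none had an unadjusted p under 0.05 with all libraries (median 0.09). In the heat shock list, 4 of 48 genes had an unadjusted p under 0.05 below control and none above with all libraries, among them hspa5 (BiP, the chaperone of the endoplasmic reticulum, named after its values were seen) with 258, 220 and 244 CPM at 5 mGy/h, against 330, 287 and 294 CPM in control, and dnajb1a, a cytosolic co-chaperone, was called higher without replicate 1. Of 43 genes of interferon and inflammation, none had an unadjusted p under 0.05 above control and 3 had one below, and tap1, the peptide transporter of antigen presentation, was called higher without replicate 1.

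**Figure D5:**
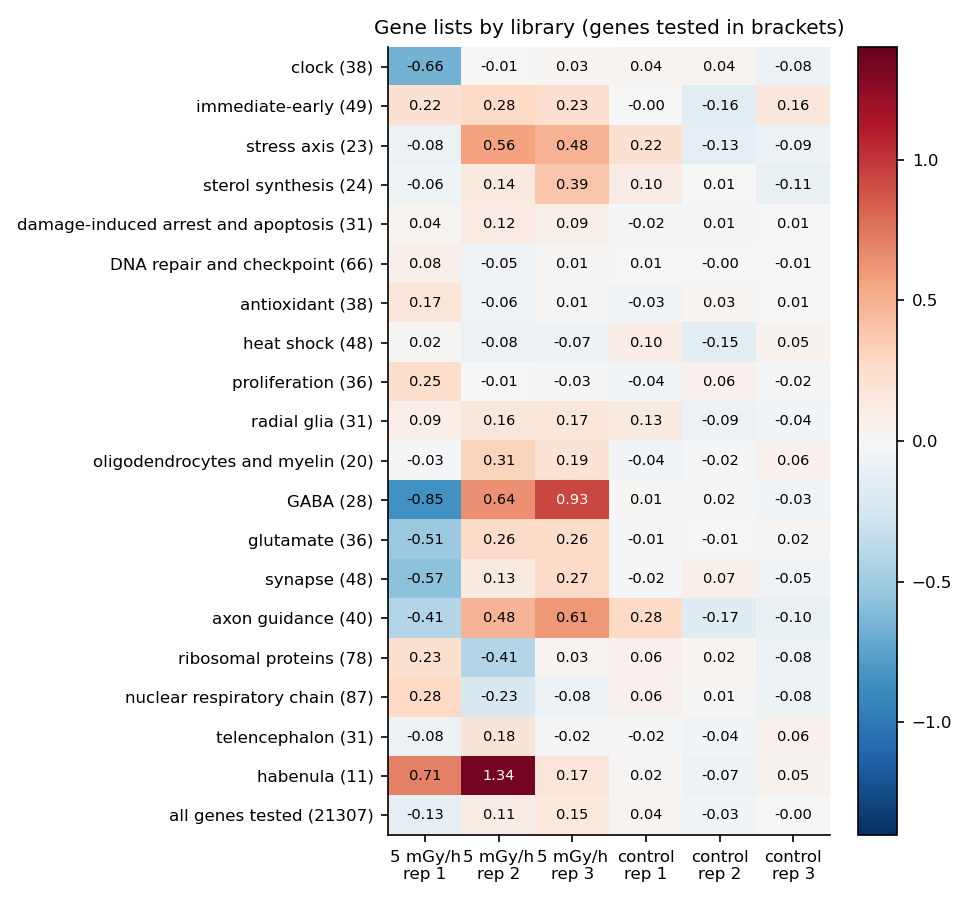
Mean log2(CPM + 0.5) of the tested genes of each list, by library, minus the mean of the 3 controls, with 5 mGy/h in the left columns and control in the right ones. The GABA, glutamate, synapse and axon guidance lists are below the controls in replicate 1 and above them in replicates 2 and 3. The mean of all genes tested has the same order. Early response genes are above the control mean in all 3 libraries at 5 mGy/h.

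Several lists of synaptic genes were below the controls in replicate 1 and several housekeeping lists above them, while 25 neuropeptide genes averaged 5.02, 4.97 and 4.71 at 5 mGy/h, against 4.83, 4.64 and 4.78 in control. The mean log2 level of all genes tested was also lowest in replicate 1, at 3.08, 3.32 and 3.35 at 5 mGy/h, against 3.24, 3.17 and 3.21 in control. The mean log2 level of the 28 GABA genes was 3.65, 5.13 and 5.42 at 5 mGy/h, against 4.51, 4.51 and 4.46 in control, and that of 48 synapse genes was 6.22, 6.92 and 7.06 at 5 mGy/h, against 6.77, 6.86 and 6.74 in control. For 78 ribosomal protein genes it was 7.47, 6.83 and 7.28 at 5 mGy/h, against 7.3, 7.27 and 7.17 in control, and for 87 nuclear genes of the respiratory chain 5.84, 5.34 and 5.48 at 5 mGy/h, against 5.63, 5.58 and 5.49 in control. None of the ribosomal or respiratory chain genes was called by edgeR, but without replicate 1 27 of the 78 and 30 of the 87 had an unadjusted p under 0.05 below control, as did 2172 of all 21673 genes. In replicate 1, 64 of the 87 respiratory chain genes lay above every control (37% of all genes). The 31 genes that mark the telencephalon averaged 4.64, 4.9 and 4.7 at 5 mGy/h, against 4.7, 4.68 and 4.78 in control.

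Markers of other cells also differed between the libraries. The summed level of 12 habenula markers was 177, 322 and 288 CPM at 5 mGy/h, against 205, 222 and 211 CPM in control, and 4 of the 11 tested had an unadjusted p under 0.05 above control (3.26% of all genes). Among them kiss1, the kisspeptin of the habenula, stood at 2.33, 6.09 and 0.551 CPM at 5 mGy/h, against 0.0163, 0.042 and 0.196 CPM in control. The 21 oligodendrocyte markers summed to 1625, 1593 and 1203 CPM at 5 mGy/h, against 1255, 1213 and 1314 CPM in control, and 14 red cell markers to 449, 311 and 304 CPM at 5 mGy/h, against 274, 309 and 306 CPM in control. The 24 markers of the preoptic area and hypothalamus summed to 521, 537 and 638 CPM at 5 mGy/h, against 646, 312 and 385 CPM in control. Skeletal muscle markers summed to 121, 97.8 and 100.1 CPM at 5 mGy/h, against 107, 106 and 104 CPM in control. Of 14 skeletal muscle genes tested, 4 had an unadjusted p under 0.05 above control and 1 below (3.26% and 2.5% of all genes). All 3 libraries at 5 mGy/h lay above every control for 7 of the 14 and below for 1 (3.94% and 4.95% of all genes). Of 12 red cell genes tested, 3 had such a p above control and none below, and 4 lay above every control in all 3 libraries. The part of these cells in the results above was not tested. Of the 36 pineal markers, control replicates 2 and 3 had 4 and 2 at 0, and the other 4 libraries had none. Without replicate 1, the lists of radial glia (notch1, ENSDARG00000052094), acetylcholine (chrm2), endothelium (kdr), other brain regions (pax7), red cells (tfr1a) and mitochondrially encoded genes (mt-nd6) each had 1 gene called higher, and skeletal muscle had 1 called lower (acta1). In this order the lists held 31, 22, 25, 14, 12, 13 and 14 genes tested. Of all genes, 6.11% were called higher and 0.231% lower. The lists of neuroblasts, motile cilia, microglia, meninges, habenula, preoptic area, pituitary, pineal organ, olfactory epithelium and telencephalon had no call by edgeR in either fit.

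The number of genes that passed with all libraries depended on the tool, among other settings. DESeq2 on the same libraries called 88 genes, 56 higher and 32 lower, where edgeR called 1, and among the 12 genes with the lowest p in each direction whose groups did not overlap it called 10 higher and 7 lower. They included nr4a1 (adjusted p = 1.15e-10, DESeq2), lonrf1 (2.46e-12), scinla (7.52e-15) and erf (8.24e-09). per2 was called in both.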

How the data were processed

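The authors deposited raw read counts per gene for each library, made with STAR against GRCz11 and Ensembl release 98, with no normalization, and the counts of the reverse strand, as fits a stranded mRNA library, were used here. DESeq2 1.22.2 is named in the submitters' processing notes. Rows that name no gene stayed out, and reads not counted on a gene made up 41.5 to 44.1% of the reads of a library.

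Counts of the 9 libraries of batch 1 were fitted by group in edgeR 4.0.16 (R 4.3.3) with TMM normalization, filterByExpr and the quasi-likelihood test, and the 8 libraries without replicate 1 at 5 mGy/h were fitted likewise. Calls needed a Benjamini-Hochberg adjusted p under 0.05 with a 1.5-fold difference or more. Each SE was the absolute log2 fold change divided by the square root of the F statistic of the quasi-likelihood test. CPM were TMM-scaled, and 0.5 CPM was added before logs. Whether replicates came from separate tanks is not given in the sources used here, so p-values measure only the spread between pools. Depth limits a gene at 3 reads to 0.0419 to 0.066 CPM, for counting error only.

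Named genes were every called gene, the 12 of lowest p in each direction whose groups did not overlap, the 12 of lowest p in each direction called without replicate 1, the 8 of largest change with replicate 1 on the other side of the control mean, the 8 in which replicate 1 differed most from its mates, and list members by level or call. The comparison, the 36 lists and the omission of replicate 1 were chosen with earlier results of these data known, and the 28 families were formed after values were seen. Symbols were found for 28988 of 32057 IDs. The fits were tested on simulated data. DESeq2 1.42.0, RLE size factors, other filters, unstranded counts, other sets of libraries and leaving out each library were alternatives. Sequence content, and promoter motifs of clock genes, were not analysed here. A few genes are not reported here.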

Additional observations from a re-analysis of the deposited data

How the results depend on the processing

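With all libraries the count of called genes was 1, and it stayed 1 with RLE size factors, with no filter on low counts, with at least 10 counts in every library, with a robust dispersion, with unstranded counts and with no fold threshold. It was 88 with DESeq2, 89 with DESeq2 without treatment of outlying counts, and 0 with the 2 groups alone, with all libraries of both batches in a fit, with the replicate block and in a test against a fold of 1.5. Leaving out single libraries gave 0 to 1375 genes, 1375 without replicate 1 at 5 mGy/h and 0 without any of the other 5 libraries. In the fits with 0 calls, all in edgeR, 383 to 1202 genes had an unadjusted p under 0.05. per2 kept its direction in 11 alternatives, at log2 fold changes of -1.20 to -1.06, and was called in 4 of them, with adjusted p of 3.29e-16 (DESeq2) to 0.37 (edgeR on the 2 groups alone).

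Without replicate 1 at 5 mGy/h the count was 1375. It was 155 with all libraries of both batches, 786 with the replicate block, 618 in a test against a fold of 1.5, and 448 to 1127 when a further library was left out. DESeq2 gave 1696 and no fold threshold 1979. Where 1 library was left at 5 mGy/h, it was assumed to vary like the other groups. Between libraries of the same replicate number, deviations from the group means correlated at -0.528 to 0.107. These values include replicate 1 at 5 mGy/h, which stood apart, and cannot tell whether the numbers pair the libraries. Among 90 genes called without replicate 1, 89 were called by DESeq2 and 45 without replicate 3. The only reversal was the mt-nd6 ENSDARG00000063922 log2 fold change, without replicate 1 of 5 mGy per h, at -0.02563 with unstranded counts, against 0.67 with stranded counts, and the cause was not tested. Leaving out replicate 1 turned the sign of the median of 11 of 36 gene lists.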

Other observations

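Some genes were on in a few libraries and nearly off in the others, whatever the dose rate. rgs16, which limits signalling of G proteins, stood at 17.2, 0.0137 and 0.022 CPM at 5 mGy/h, against 0.0813, 0.084 and 14.1 CPM in control, and at 36.8, 0.0548 and 0.0194 CPM at 0.5 mGy/h. rgs8, gpbp1l1, pik3r3 and capza1b were high in the same 3 of the 9 libraries of batch 1, replicate 1 at 5 mGy/h, control replicate 3 and replicate 1 at 0.5 mGy/h. In RefSeq's GRCz12tu annotation rgs16 and rgs8 lie 2 genes apart, gpbp1l1 and pik3r3 6 genes apart, and the first pair lies within 70 genes of the second. rimkla was high in replicate 1 at 5 mGy/h (44 CPM), in control replicates 1 and 3 (22.1 and 40.5 CPM) and in replicates 1 and 2 at 0.5 mGy/h (39.1 and 19.1 CPM), and at most 0.446 CPM in the other libraries.

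pth2, a peptide hormone that in zebrafish is made in the thalamus and tracks the presence of other fish, stood at 7.66 CPM in replicate 1 at 5 mGy/h and at 0.0274 and 0 CPM in its mates, against 0 CPM in all 3 controls and at 0.5 mGy/h. The count of 0 allows up to 0.0624 CPM in the shallowest control.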
